A study of Homo sapiens with 6 samples.

Results

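The heat shock proteins and the co-chaperones that work with them were examined as a list of 38 genes. They were taken by gene symbol out of 40205 gene rows in the count table, with earlier results of these data known. The list holds the transcription factors HSF1 and HSF2, the HSP70, HSP110 and HSP90 families, the mitochondrial chaperonin, the small heat shock proteins, 9 J-domain proteins, 4 BAG proteins and 3 co-chaperones of HSP90. RNA was sequenced from cells labelled HepG2, a human hepatoma cell line, in 3 samples left untreated, named Control and numbered 1 to 3, and in 3 that were given 120 μM of cationic liposomes (CLs) over 24 h, named CLs and numbered likewise. All 6 samples were cultured in DMEM with serum, penicillin and streptomycin and were plated for 24 h before the exposure began. The CLs were lipid vesicles of DOTAP (a lipid with a positively charged head), cholesterol and a PEG-bearing phospholipid, of the kind used to carry nucleic acids and drugs into cells. The control wells received no liposomes, so the cationic lipid and the vesicle itself cannot be told apart as the source of a difference.

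Chaperones bind proteins that are not folded and keep them from clumping. HSP70 proteins take up short unfolded stretches in a cycle driven by ATP, J-domain proteins bring them their clients and start the cycle, and BAG and HSP110 proteins swap the spent nucleotide and release the client, which HSP90 or the chaperonins may then finish. When unfolded protein builds up, HSF1 is set free from its chaperone partners, binds heat shock elements (inverted repeats of the letters GAA and TTC) before the genes of inducible chaperones and raises their transcription, and this is the classical readout of protein damage in a stressed cell.

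The total count per sample ranged from 11418527 to 13998946. Of 15047 genes with enough counts to test, 13 passed the threshold used throughout (an adjusted p under 0.05 in edgeR's quasi-likelihood test, corrected by the Benjamini-Hochberg method over all tested genes, with a fold above 1.5 or below 0.67), which is 0.0864% of them. The label HepG2 was not borne out by its defining genes: 17 hepatocyte and HepG2 markers together had 4, 23 and 21 counts in the controls and 183, 3 and 5 counts in the treated samples, TTR and APOH were at 0 in all 6 samples, AFP had at most 1 count, and ALB had 8 counts in CLs-1 and 0 elsewhere. CLs-1 stood apart from the other 5 samples. It held 482 counts of adrenal cortex markers against 11 to 32 elsewhere, 476 counts of erythroid markers against 0 to 4, and 1044 counts of the collagen gene COL1A2 against 0 to 2, so the value without CLs-1 is given wherever leaving it out moved the log2 fold change of a gene described sample by sample by more than 0.1. Leukocyte markers summed to 3 to 32 counts, endothelial markers to 1 to 43 and fibroblast markers to 8406 to 13572. The fibroblast sum was mostly COL3A1 (7456 to 11358 counts) and COL1A1 (764 to 2472), and PDGFRB had 167 to 275. The other fibroblast markers were near 0 outside CLs-1, with DCN at 2 to 5 counts, COL1A2 at 0 to 2, THY1 at 0 to 1 and LUM at 0. Epithelial markers, nearly all from KRT7, KRT8 and KRT18, summed to 66464 to 74396 counts in the controls and 32749 to 40406 in the treated samples. The part of these genes in the results was not tested.

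The letters before the start sites show which of the genes carry the spelling of a heat shock element. Stretches are shown for the inducible HSP70 pair, for 7 genes with an element of 3 units and for DNAJB1, from RefSeq on the GRCh38.p14 build and in the direction of transcription, with the heat shock element in capitals. The windows searched ran from 250 bases before to 50 after each start, and every stretch shown ends before the start.
HSPA1A: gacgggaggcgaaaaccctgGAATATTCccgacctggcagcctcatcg
HSPA1B: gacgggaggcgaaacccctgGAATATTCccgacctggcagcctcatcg
HSPA6: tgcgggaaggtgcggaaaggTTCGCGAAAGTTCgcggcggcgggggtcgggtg
HSPA8: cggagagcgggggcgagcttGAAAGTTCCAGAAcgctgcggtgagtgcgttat
HSPA8: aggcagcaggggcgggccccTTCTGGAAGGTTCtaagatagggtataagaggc
HSP90AA1: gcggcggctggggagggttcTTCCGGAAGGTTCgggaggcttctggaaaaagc
HSP90AB1: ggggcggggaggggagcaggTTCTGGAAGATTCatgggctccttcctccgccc
HSP90AB1: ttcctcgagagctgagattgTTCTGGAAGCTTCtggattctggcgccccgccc
HSPD1: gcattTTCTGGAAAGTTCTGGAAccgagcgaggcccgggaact
DNAJB6: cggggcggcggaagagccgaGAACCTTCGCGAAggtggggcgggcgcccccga
CHORDC1: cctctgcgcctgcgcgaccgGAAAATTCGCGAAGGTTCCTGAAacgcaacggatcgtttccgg
DNAJB1: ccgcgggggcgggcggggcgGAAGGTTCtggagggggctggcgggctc
DNAJB1: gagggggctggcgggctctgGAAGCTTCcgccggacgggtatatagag

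These stretches lie at chr6:31815417-31815464 and chr6:31827613-31827660 (plus strand) for the inducible pair, at chr1:161524446-161524498 (plus) for HSPA6, at chr11:123062334-123062386 and chr11:123062159-123062211 (minus) for HSPA8, and at chr14:102087100-102087152 (minus) for HSP90AA1. For HSP90AB1 they lie at chr6:44247758-44247810 and chr6:44247811-44247863 (plus), for HSPD1 at chr2:197500048-197500090 (minus), for DNAJB6 at chr7:157336853-157336905 (plus), for CHORDC1 at chr11:90223067-90223129 (minus), and for DNAJB1 at chr19:14518447-14518494 and chr19:14518417-14518464 (minus). The HSPA1A and HSPA1B stretches matched at 47 of 48 bases. An element of 3 units, spelt GAANNTTCNNGAA or TTCNNGAANNTTC with N any base and searched on both strands, stood in the window of 8 of the 34 listed genes that have one (23.5%), against 166 of 27305 genes with a window (0.608%). Those 8 genes were HSPA6, HSPA8, HSPD1, HSP90AA1, HSP90AB1, DNAJA1, DNAJB6 and CHORDC1, of which DNAJA1 is named only. The shorter spelling of 2 units, GAANNTTC or TTCNNGAA, which every 3-unit element also contains, stood in 19 of the 34 (55.9%) and in 16.2% of all genes with a window. BAG1, BAG3, HSPH1 and AHSA1 were among the rest of the 34, whose windows held neither. A match describes the letters and not a bound site. The absence of these exact spellings from a window does not show that a gene lacks an element.

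None of the 38 genes passed the threshold after CLs exposure, against 13 of all 15047 tested genes (0.0864%). At so low a share, 0 of 38 does not set the list apart from other genes. Larger changes also fell short of it. KRT8 and KRT18 had log2 fold changes of -1.21 and -1.19 and groups that did not overlap (edgeR, adjusted p = 0.0508 for each). In bulk RNA such as this, fewer cells of a type and less RNA per cell cannot be told apart. All 38 had enough counts to be tested, 34 of them with at least 100 counts in every sample and 20 with at least 1000. By edgeR, 1 of them, BAG1, had an unadjusted p under 0.05, against 5.81% of all tested genes, and DESeq2 likewise called 0 of the 38. BAG1 had the lowest adjusted p in edgeR (0.327), and the other 37 genes had adjusted p of 0.916 or higher. In the CLs-treated samples 21 genes were higher and 17 lower (55.3% higher, against 52.1% of all tested genes), and the median log2 fold change was 0.07 (0.01 over all tested genes). The changes ran from a log2 fold change of -0.65 for HSPA2 to 0.51 for BAG1, and for 34 of the 38 genes the range of the 3 controls alone was wider than the change, as it was for 82.5% of all tested genes.

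The size of change that these samples leave possible can be read from the 95% intervals of the log2 fold changes. The interval stayed below a 1.5-fold rise for 26 genes and above a fold of 0.67 for 32, and for 22 genes it lay wholly between those folds. For 34 genes it lay wholly between a fold of 0.5 and a fold of 2, and for 35 it lay below a 2-fold rise. The widest intervals belonged to genes with few counts, such as HSPA6, or with controls far apart, such as CRYAB and HSPB8.

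**Figure D1:**
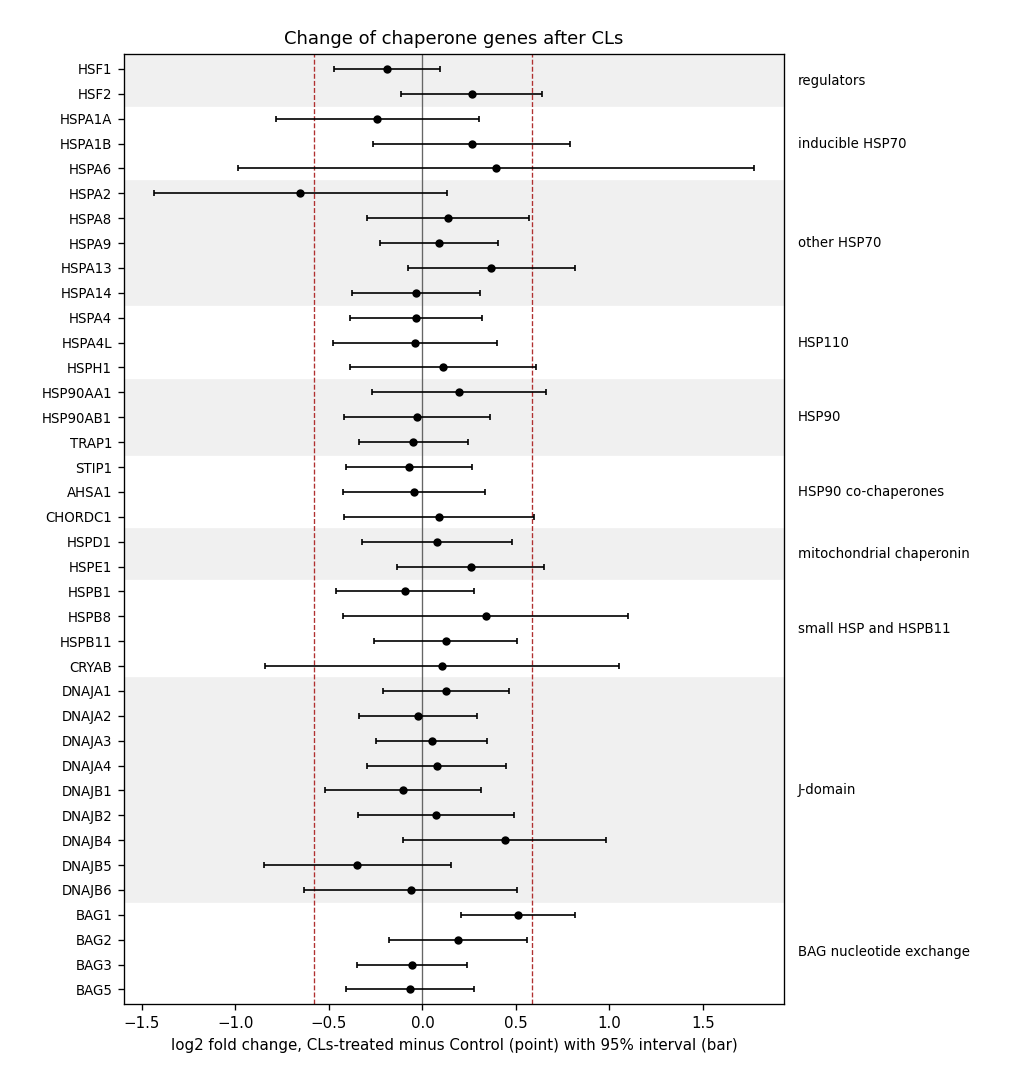
Log2 fold change of each of the 38 genes (CLs-treated minus Control, horizontal axis) with its 95% interval from the edgeR fit, 3 samples per group, grouped by role. Dashed lines mark folds of 0.67 and 1.5, the interval of BAG1 alone does not include 0, and 22 intervals lie wholly between the lines.

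HSF1, the master regulator of the heat shock response, was slightly lower in the treated samples. Its level was 166, 171 and 173 CPM (counts per library scaled to a common total, with the TMM factors of edgeR) in Control-1 to Control-3 and 132, 155 and 160 CPM in CLs-1 to CLs-3. The groups did not overlap, which held downward for 2 of the 38 genes (HSF1 and DNAJB5) and for 6.18% of all tested genes. The log2 fold change was -0.19 ± 0.13 (SE, n = 3 per group), short of the threshold (edgeR, adjusted p = 0.966), and -0.11 without CLs-1. HSF2, a related factor that can pair with HSF1, had 20.7, 18.9 and 21.9 CPM in the controls and 29.4, 23.2 and 21.0 CPM in the treated samples. Only CLs-1 lay far above the controls, and the log2 fold change of 0.26 ± 0.17 (SE) became 0.11 without that sample. HSF1 is regulated chiefly at the protein level, so its transcript does not measure its activity.

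HSPA1A and HSPA1B encode the stress-inducible HSP70, and they are the genes that rise most sharply in a heat-shocked cell. HSPA1A had 740, 491 and 316 CPM in Control-1 to Control-3 and 479, 404 and 426 CPM in CLs-1 to CLs-3. HSPA1B had 558, 449 and 308 CPM in the controls and 690, 498 and 389 CPM in the treated samples. The log2 fold changes pointed in opposite directions, -0.24 ± 0.25 (SE) for HSPA1A and 0.26 ± 0.24 (SE) for HSPA1B, or 0.02 for HSPA1B without CLs-1. The groups overlapped in both genes, and HSPA1A had a log2 fold change of 0.11 once Control-1 was left out.

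The counts of this pair are uncertain gene by gene because the transcripts are near copies. In GENCODE release 29, 67.3% of all 100-base windows of HSPA1A transcripts and 72.7% of those of HSPA1B transcripts also occurred in another gene, chiefly in each other. The share of the pair's counts given to HSPA1A was 57.0%, 52.2% and 50.7% in the controls and 41.0%, 44.7% and 52.3% in the treated samples, with exact binomial 95% intervals of 56.2 to 57.8% in Control-1 and 40.2 to 41.7% in CLs-1 that cover counting error only. Their sum is free of that split. It was 1298, 940 and 624 CPM in the controls and 1169, 902 and 815 CPM in the treated samples, so that all 3 treated values lay within the control range. The fold of the sum was 1.01 with a 95% interval of 0.699 to 1.45 (edgeR, adjusted p = 0.999).

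**Figure D2:**
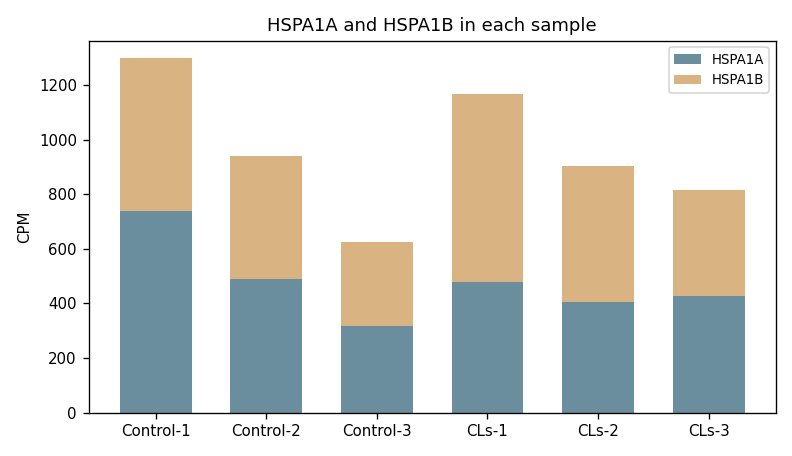
Stacked CPM of HSPA1A (lower part) and HSPA1B (upper part) in each of the 6 samples. The sums ran from 624 in Control-3 to 1298 in Control-1, and the 3 treated sums lay between 815 and 1169.

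HSPA6, an HSP70 that is nearly silent until strong stress, stayed near the floor of detection. It had 30, 5 and 6 counts in the controls and 36, 13 and 11 counts in the treated samples. Control-1 and CLs-1 were high and the other 4 samples low, and the groups overlapped. The log2 fold change was 0.40 ± 0.63 (SE), -0.18 without CLs-1 and 1.70 without Control-1, and 27.6% of its 100-base transcript windows also occurred in HSPA7. The 95% interval of the fold ran from 0.505 to 3.42, so these samples leave folds within that range possible.

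HSPA8, the constitutive HSP70 of the cytosol that carries most everyday folding, was the most abundant HSP70. It had 3405, 2799 and 2001 CPM in Control-1 to Control-3 and 3343, 2748 and 2938 CPM in CLs-1 to CLs-3, all treated values within the control range. The log2 fold change was 0.14 ± 0.20 (SE) and -0.04 without Control-3. HSPA2, an HSP70 best known from germ cells, was rare, with 4.34, 5.44 and 9.35 CPM in the controls and 2.35, 4.75 and 5.17 CPM in the treated samples. It had the most negative log2 fold change of the list, -0.65 ± 0.36 (SE; edgeR, adjusted p = 0.916), but the groups overlapped, and the value was -0.27 without Control-3 and -0.36 without CLs-1. HSPA13, an HSP70 of the endoplasmic reticulum, had 36.5, 35.2 and 28.2 CPM in the controls and 57.5, 36.0 and 35.3 CPM in the treated samples. The high value was that of CLs-1 alone, and without it the log2 fold change of 0.37 ± 0.20 (SE) became 0.10. HSPA9, the HSP70 of mitochondria, and HSPA14, which works at the ribosome, had log2 fold changes of 0.09 and -0.04.

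HSPH1, the heat-inducible HSP110 that serves as a nucleotide exchange factor for HSP70, had 195, 174 and 125 CPM in the controls and 243, 154 and 136 CPM in the treated samples. CLs-1 was the highest and Control-3 the lowest of the 6, and the other 4 lay between them. The log2 fold change was 0.11 ± 0.23 (SE) and turned to -0.18 without CLs-1. The other 2 genes of this family, HSPA4 and HSPA4L, had log2 fold changes of -0.03 and -0.04, which were -0.19 and -0.33 without CLs-1.

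The 2 cytosolic HSP90 genes, whose products mature kinases and hormone receptors, had with HSPA8 the highest counts of the list. HSP90AA1, the inducible form, had 2219, 2054 and 1330 CPM in Control-1 to Control-3 and 2607, 1979 and 1825 CPM in CLs-1 to CLs-3. HSP90AB1, the constitutive form, had 4372, 4031 and 2974 CPM in the controls and 4082, 3630 and 3438 CPM in the treated samples. In both genes Control-3 was the lowest of the 6 samples and the groups overlapped. The log2 fold change was 0.19 ± 0.21 (SE) for HSP90AA1, and it was 9e-04 without Control-3 and 0.03 without CLs-1. It was -0.03 ± 0.18 (SE) for HSP90AB1, with a 95% interval of -0.42 to 0.36, and 1e-04 when samples were scaled by total counts alone. TRAP1, the HSP90 of mitochondria, had a log2 fold change of -0.05. Of the co-chaperones, STIP1, which links HSP70 to HSP90, AHSA1, which speeds the HSP90 ATPase, and CHORDC1 had log2 fold changes of -0.07, -0.05 and 0.09.

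HSPD1 and HSPE1 encode the subunits of the chaperonin that folds proteins inside mitochondria, and the genes lie head to head. HSPD1 had 1108, 938 and 763 CPM in the controls and 1206, 886 and 877 CPM in the treated samples, and HSPE1 had 126, 115 and 82.7 CPM and 146, 134 and 108 CPM. In both genes CLs-1 was the highest and Control-3 the lowest of the 6 samples, and the groups overlapped. The log2 fold changes were 0.08 ± 0.18 (SE) and 0.26 ± 0.18 (SE), that of HSPD1 was -0.09 without CLs-1, and that of HSPE1 was 0.10 without Control-3.

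HSPB1, a small heat shock protein that holds unfolded proteins in a refoldable state, had 461, 405 and 375 CPM in the controls and 306, 463 and 393 CPM in the treated samples. Here CLs-1 was the lowest of the 6, and the log2 fold change of -0.09 ± 0.17 (SE) became 0.05 without it. HSPB8, which works with BAG3 to send clients to autophagy, had 81.1, 77.7 and 29.2 CPM in the controls and 94.99, 94.5 and 48.0 CPM in the treated samples. Control-3 and CLs-3 were low and the other 4 samples high, and the log2 fold change of 0.34 ± 0.35 (SE) was -0.0032 without Control-3 and 0.18 without CLs-1. CRYAB (alpha-B crystallin) had 9.55, 12.1 and 4.54 CPM in the controls and 9.14, 15.0 and 4.03 CPM in the treated samples. Its 2 groups were alike in range and in the order of their samples, and the log2 fold change was 0.10 ± 0.43 (SE). It ran from -0.39 without CLs-2 to 0.46 without CLs-3. HSPB11, which is named for this family but belongs to the transport machinery of cilia, had a log2 fold change of 0.12.

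Among the J-domain proteins, DNAJB1, the heat-inducible partner of HSPA1A and HSPA8, had 468, 311 and 278 CPM in the controls and 366, 308 and 309 CPM in the treated samples. The high value of Control-1 set the sign, and the log2 fold change of -0.10 ± 0.19 (SE) became 0.15 without that sample. DNAJB4 had 32.9, 29.2 and 24.1 CPM in the controls and 56.8, 31.9 and 27.9 CPM in the treated samples. The high value was again that of CLs-1, and the log2 fold change of 0.44 ± 0.25 (SE; edgeR, adjusted p = 0.926) became 0.06 without it. DNAJB5 had 5.04, 5.61 and 5.92 CPM in the controls and 3.74, 4.58 and 4.73 CPM in the treated samples, the second gene with groups that did not overlap downward. Its log2 fold change was -0.35 ± 0.23 (SE; edgeR, adjusted p = 0.956) and -0.25 without CLs-1, from 53 to 69 counts per sample. The other 6 (DNAJA1, DNAJA2, DNAJA3, DNAJA4, DNAJB2 and DNAJB6) had log2 fold changes between -0.06 and 0.12.

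BAG1 had the largest positive log2 fold change of the 38 genes. It encodes a nucleotide exchange factor that releases clients from HSP70 and links HSP70 to the proteasome. Its level was 176, 210 and 191 CPM in Control-1 to Control-3 and 270, 308 and 245 CPM in CLs-1 to CLs-3. Every treated sample lay above every control, which held upward for 1 of the 38 genes and for 5.34% of all tested genes. The mean was 192 ± 16.6 CPM (SD, n = 3) in the controls and 274 ± 31.6 CPM in the treated samples, a ratio of 1.43. The log2 fold change was 0.51 ± 0.14 (SE), with a 95% interval of 0.21 to 0.82, and did not pass the threshold (edgeR, adjusted p = 0.327). It was 0.52 without CLs-1, and it lay between 0.42 and 0.59 under every alternative run, with an adjusted p between 0.0827 (DESeq2) and 0.819. An exact permutation test of 3 against 3 samples cannot give a p below 0.1.

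BAG3, a target of HSF1 that couples HSP70 to selective autophagy, had 135, 132 and 108 CPM in the controls and 121, 125 and 116 CPM in the treated samples. All 3 treated values lay within the control range, and the log2 fold change was -0.05 ± 0.13 (SE), with a 95% interval of -0.35 to 0.24. BAG2, which restrains the ubiquitin ligase STUB1, and BAG5 had log2 fold changes of 0.19 and -0.07.

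**Figure D3:**
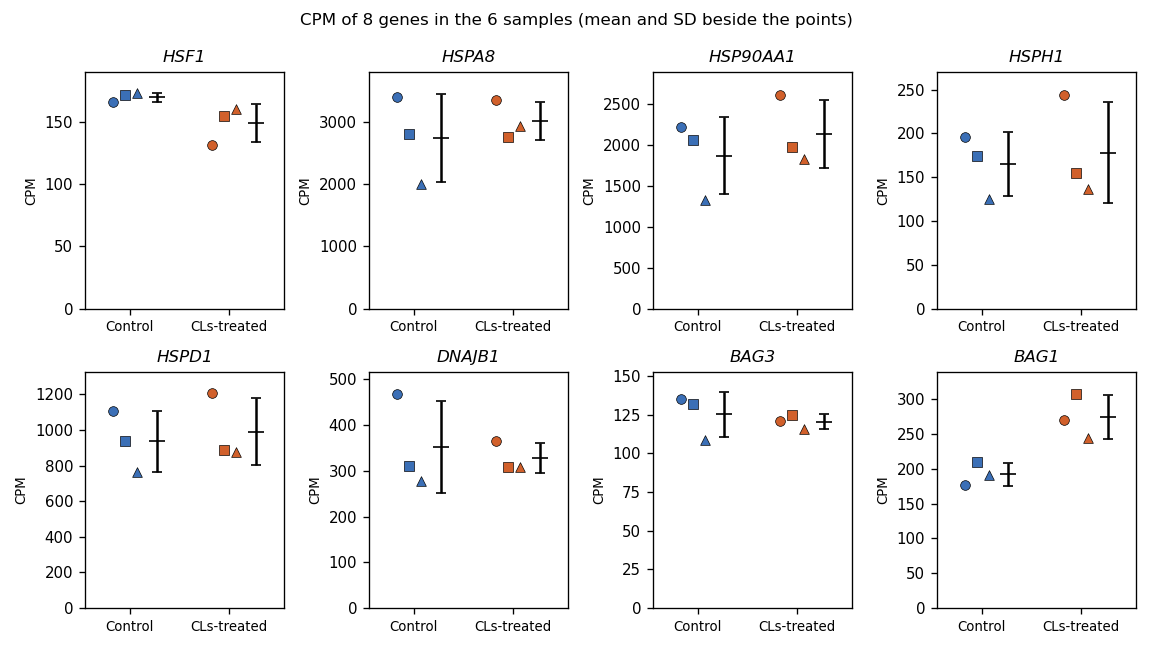
CPM of 8 genes in the 3 Control (blue) and 3 CLs-treated (orange) samples, with replicate 1 as a circle, 2 as a square and 3 as a triangle, and with the mean and SD beside the points. BAG1 and HSF1 are the genes shown whose groups do not overlap, BAG1 upward (245 to 308 CPM against 176 to 210) and HSF1 downward (132 to 160 against 166 to 173).

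Samples of the same group differed from each other, and the differences ran the same way in many of these genes at once. Control-3 was the lowest of the 6 samples for 22 of the 38 genes, against 22.0% of all tested genes, and the lowest control for 29 of them, against 40.1% of all tested genes. CLs-1 was the highest of the 6 for 17 genes, against 25.7% of all tested genes, and Control-1 for 11, against 15.3%. The median of the 38 log2 levels, taken from the mean of the 6 samples, was 0.16, 0.05 and -0.27 in Control-1 to Control-3. In CLs-1 to CLs-3 it was 0.19, 0.01 and -0.09. The same median over all tested genes was 0.01 or less in every sample, and TMM scaling itself brings that value near 0. These genes are partly co-regulated and are not independent of each other.

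The count of genes higher after treatment varied with which samples were in the comparison. With all samples it was 21 (52.1% of all tested genes), and also 21 with the replicate number in the fit (51.6% of all). Within their groups, same-numbered Control and CLs samples deviated alike over the 38 genes (correlations of 0.61, 0.52 and 0.76). The part of this in the counts below was not tested. Without Control-3, 11 of the 38 genes were higher in the treated samples (53.7% of all tested genes) and the median log2 fold change was -0.05. Without Control-1, 31 were higher (52.2% of all) and the median was 0.14. Without CLs-1, 20 were higher (50.4% of all) and the median was 0.01, and without CLs-3, 25 were higher (51% of all) and the median was 0.15. In each of these comparisons with a sample left out, 0 of the 38 genes passed the threshold by edgeR. In the same order, 2, 3, 2 and 3 genes had an unadjusted p under 0.05. The shares of all tested genes under that p are not reported here for these comparisons, so these counts are not read as a result about the list.

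**Figure D4:**
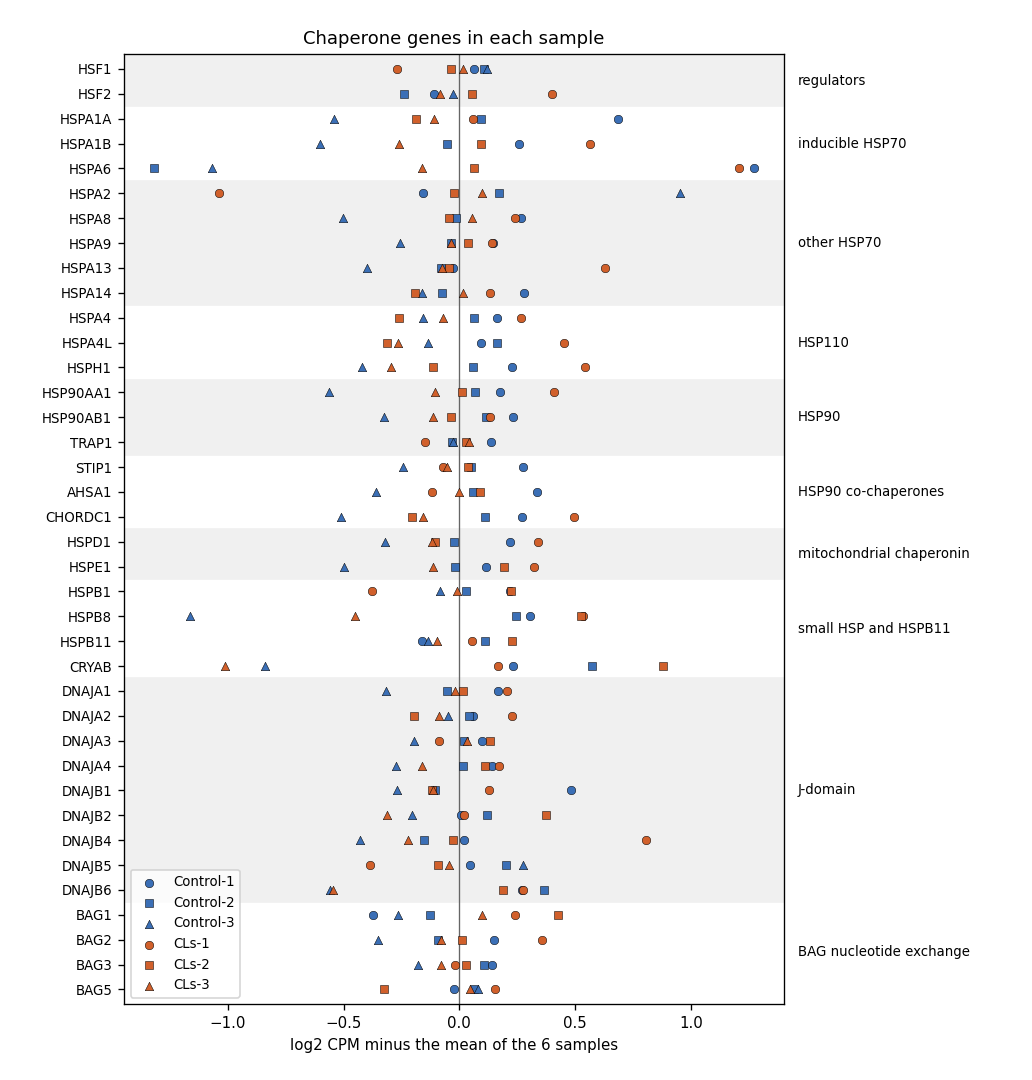
Log2 CPM of each of the 38 genes in each sample, as the difference from that gene's mean over the 6 samples (horizontal axis), grouped by role, with Control in blue, CLs-treated in orange and the replicate number as the symbol. Control-3 (blue triangles) is the leftmost point for 22 genes and CLs-1 (orange circles) the rightmost for 17.

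Taken as a sum, the 38 genes made up 1.755%, 1.551% and 1.195% of all counts in Control-1 to Control-3 and 1.816%, 1.504% and 1.462% in CLs-1 to CLs-3. The summed CPM was 15183 ± 3056 (SD, n = 3) in the controls and 15812 ± 1574 in the treated samples, a ratio of 1.04, and the treated sums (14629 to 17598) lay within the range of the controls (11906 to 17955). The HSP90 genes supplied 40.7% of the sum on average, the HSP70 genes outside the inducible trio 22.1%, the J-domain proteins 7.58%, the mitochondrial chaperonin 6.97% and the inducible HSP70 genes 6.11%. Among the roles, the BAG sum did not overlap between groups, at 425 to 483 CPM in the controls and 503 to 573 CPM in the treated samples, and BAG1 is the largest term in it. The sum of the 2 regulators also did not overlap, with HSF1 as its main term. It was 186 to 194 CPM in the controls and 161 to 181 CPM in the treated samples. The sums of the other roles overlapped between the groups. As single genes BAG1 and HSF1 also did not overlap, which held upward for 5.34% and downward for 6.18% of all tested genes.

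**Figure D5:**
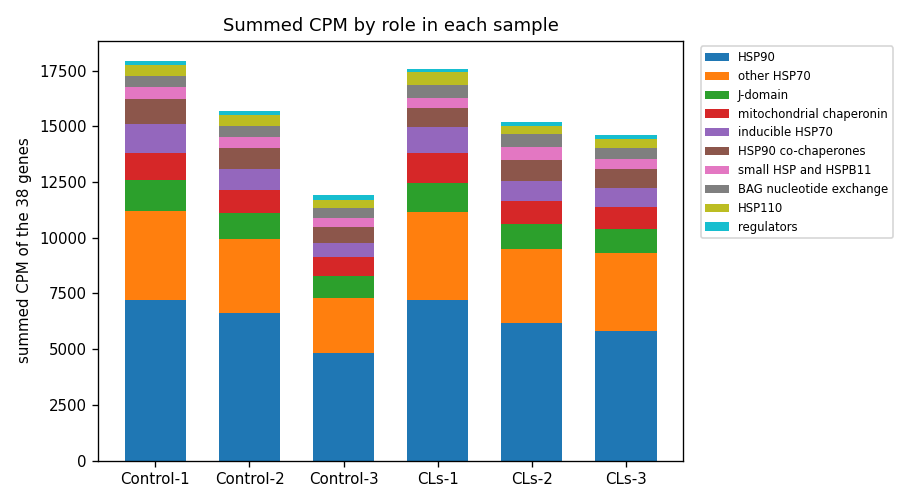
Summed CPM of the 38 genes in each sample, stacked by role. The total ran from 11906 in Control-3 to 17955 in Control-1, and the 3 treated samples lay between 14629 and 17598.

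Levels can be compared between genes only per length. Divided by exon length in GENCODE release 29, the control mean was highest for HSP90AB1 (1273 ± 245 CPM per kb, SD, n = 3), followed by HSPA8 (1013 ± 261), HSP90AA1 (464 ± 117), HSPB1 (390 ± 41.5) and HSPD1 (364 ± 67.1). HSP90AB1 was above HSPA8 in each of the 6 samples, and the gap between their control means was close to the SD of either. The gaps between HSP90AA1, HSPB1 and HSPD1 were smaller than the SD of HSP90AA1. The inducible pair stood at 208 ± 85.8 CPM per kb for HSPA1A and 174 ± 49.9 for HSPA1B in untreated cells, near STIP1 (204 ± 36.0) and TRAP1 (191 ± 13.0). At the other end were DNAJB5 (1.59 ± 0.129), HSPA2 (1.10 ± 0.455) and HSPA6 (0.499 ± 0.519).

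Many of these genes have processed copies in the genome that can draw reads from the parent. The table held 64 such pseudogene rows, of which 25 had enough counts to test and 0 were called by edgeR or DESeq2, with the lowest adjusted p at 0.949 (edgeR). Together the copies of HSPD1 held 16.3 to 17.4% of the count of the parent gene over the 6 samples, those of HSPB1 13.5 to 15.7%, those of HSP90AA1 9.83 to 11.3% and those of HSP90AB1 8.48 to 9.47%. The ranges of Control and CLs-treated samples overlapped in these families other than that of HSP90AA1, where the copies held 11 to 11.3% in the controls and 9.83 to 10.7% in the treated samples.

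Chaperones outside the list gave the same count of calls, 0 in each of 8 lists by edgeR and by DESeq2, with 1 gene, PFDN4, at an unadjusted edgeR p under 0.05. The groups did not overlap upward for PFDN4, DNAJC19 and DNAJC27 and downward for GRPEL2, and they overlapped in the other genes tested. Over all tested genes, 0.0864% were called and 5.81% had an unadjusted edgeR p under 0.05. The groups did not overlap upward for 5.34% and downward for 6.18% of all tested genes, and 52.1% were higher in the treated samples. Of the TRiC chaperonin, the ring that folds actin and tubulin in the cytosol, 6 of 8 subunits were higher with a median log2 fold change of 0.04, and the largest differences were those of CCT2 (0.13) and TCP1 (0.12). Of prefoldin, which hands clients to TRiC, 5 of 6 subunits were higher with a median of 0.12. PFDN4 had 13.0, 11.9 and 11.2 CPM in the controls and 16.6, 16.5 and 15.2 CPM in the treated samples, and a log2 fold change of 0.41 ± 0.17 (SE) that did not pass the threshold (edgeR, adjusted p = 0.767). VBP1 followed at 0.24. Of 18 other co-chaperones of HSP90 and HSP70, 12 were higher with a median of 0.06, and CACYBP was at 0.22.

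Of 24 further J-domain genes, 23 could be tested and 11 were higher (median log2 fold change -0.02), with DNAJC25 and DNAJC12 (both 0.32) as the largest differences. Of 12 ER chaperones, 7 were higher (median 0.04), with DNAJB9 at 0.23 and PDIA4 at -0.19. Of 9 mitochondrial proteases and exchange factors, 3 were higher (median -0.02), with GRPEL2, an exchange factor for HSPA9, at -0.30 and the protease gene AFG3L2 at -0.05. Of 7 further genes known to respond to heat, 5 were higher (median 0.06), with HSBP1, a small protein that binds HSF1, at 0.23 and the polyubiquitin gene UBB at 0.16. Of 6 further small heat shock proteins, HSPB7 alone had enough counts, with a log2 fold change of -0.09.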

How the data were processed

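Total RNA from 3 Control and 3 CLs-treated samples was sequenced as single-end Ion Proton reads mixed on 1 chip. The authors mapped reads with MapSplice and deposited raw counts per gene symbol, with HTSeq 0.6.1 and hg19 (GRCh37) named in the submitters' processing notes, and the annotation and strand setting are not given in the sources used here. Total counts per sample were 11418527 to 13998946. The dose of 120 μM is that of the labels, and the text of the study uses both molar and mass units for it. The study applied EBSeq and RPKM values, which were not used here. Counts were filtered with filterByExpr, scaled by TMM and fitted with the quasi-likelihood F test of edgeR 4.0.16 in R 4.3.3, with group as the only term. A gene counted as called with an adjusted p (Benjamini-Hochberg, all tested genes) under 0.05 and a fold above 1.5 or below 0.67, the thresholds of the study. The scripts were tested on simulated data. CPM values are TMM-scaled. The study calls the 6 samples independent, but no label says that they came from separate cultures, and p-values measure the spread between these samples, which may in part be technical.

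Alternatives were RLE scaling, total counts, DESeq2 1.42.0, no filter, a mean of at least 10 counts, no fold criterion, a replicate block, each sample left out, and HSPA1A and HSPA1B summed. The 38 genes, the other lists and the markers were chosen with earlier results of these data known. Values in every sample are given for genes called, genes whose groups do not overlap, the 5 largest changes in each direction and 15 inducible or central chaperones and their regulators, and the other lists by genes called and the 2 largest changes, of which 1 is not reported here. Exon lengths and shared 100-base windows came from GENCODE release 29 and promoter windows from RefSeq (GRCh38.p14). Neither is the annotation the reads were counted with, and 4 of the 38 genes (CRYAB, HSF1, HSPA14 and HSPB11) were without a window.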

Additional observations from a re-analysis of the deposited data

How the results depend on the processing

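None of the 38 chaperone genes was called under any of the alternatives run, and the lowest adjusted p was 0.0827 (BAG1, DESeq2). The number called among all genes moved from 13 to 107 with DESeq2, 171 with no filter, 68 with the replicate block and 8 with total counts only, and ranged from 3 to 7 with each sample left out in turn. The cause was not tested, except that leaving out samples and testing other sets of genes change what enters the fit. The number of the 38 genes that were higher in the CLs-treated samples ranged from 11 (without Control-3) to 31 (without Control-1) with each sample left out, against 21 with all 6. The sign of the log2 fold change was the same in all 14 settings for 13 of the 38 genes. The replicate numbers were not taken to pair the samples: the correlations of same-numbered deviations over 15047 genes were 0.11, 0.10 and 0.31, the second of them under the limit of 0.1 at 0.0987, although every sample correlated best with its own number, and over the 38 genes alone the correlations were 0.61, 0.52 and 0.76. With the replicate block the median log2 fold change of the 38 genes was 0.05, 0 were called and the adjusted p of BAG1 was 0.169. With that block 4 rather than 1 of them had an unadjusted edgeR p under 0.05. The share of all tested genes under that p is not reported here for this fit, so the 4 are not read as a result about the list. Counts limit HSPA6, HSPA2 and DNAJB5 most, and shared sequence limits HSPA1A and HSPA1B.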
